A study of Mus musculus with 18 samples.

Results

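The 10 genes described here encode the subunits of NF-kB and proteins grouped as its inhibitors, in RAW264.7 cells, a mouse macrophage line. They were chosen by name and all 10 were present among the 11243 genes of the count table. The 5 subunit genes are Nfkb1, Nfkb2, Rel, Rela and Relb. The other 5 are grouped as inhibitors: Nfkbia, Nfkbib, Nfkbie, Nfkbiz and Tnfaip3. Nfkbiz encodes a nuclear co-regulator of NF-kB, so the group name is loose for it. Resting cells given vehicle (control) were compared with cells given 500 ng/mL lipopolysaccharide (LPS) for 6 h, and with cells given 100 nM torin1, an inhibitor of the kinase mTOR, 15 min before the same LPS (LPS+torin1). Total mRNA and polysome-associated mRNA (mRNA on heavy polysomes, the transcripts carrying many ribosomes) were sequenced from each of 9 lysates of 3 independent experiments, giving 18 libraries in 6 groups of 3. The cells are a single line with no genotype difference between groups, and no group given torin1 without LPS was analysed here, so the torin1 comparison describes LPS-activated cells.

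NF-kB is a family of dimeric transcription factors that in a resting macrophage is kept in the cytoplasm by IkB proteins. LPS acts through its receptor TLR4 to switch on the IkB kinase (IKK) complex, IkB is phosphorylated and destroyed, and the freed dimers enter the nucleus and turn on inflammatory genes. Several NF-kB subunits and inhibitors are themselves NF-kB target genes, which gives the pathway its feedback loops.

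Libraries held 27800983 to 47725557 counts, and the lowest count of any of the 10 genes in any library was 295. All 8 macrophage markers looked for (Adgre1, Cd68, Csf1r, Itgam, Lyz2, Spi1, Fcgr3 and Cd14) were counted, with a summed level of 10710 to 21176 CPM (read counts relative to library size). None of the 4 T cell, 3 B cell, 3 fibroblast or 3 epithelial markers was in the table, and of 2 endothelial markers Cdh5 alone was, at 0.0658 to 1.43 CPM. CPM values are scaled by TMM (trimmed mean of M values), which sets the typical gene level between libraries. In a bulk sample of this kind, a change in the fraction of cells expressing a gene and a change in RNA per cell cannot be told apart.

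LPS raised nearly the whole family. In total mRNA all 10 genes were higher in LPS than in control cells, though Rela turned to the other direction when libraries were scaled by their totals, and in polysome-associated mRNA 9 of 10 were, the exception being Rela. A gene was called at an adjusted p of at most 0.25 in edgeR, the threshold of the study, at which 32.2% of all genes were called higher and 34.3% lower in total mRNA, and 26.4% higher and 28.7% lower in polysome-associated mRNA. The median log2 fold change of the 10 genes was 1.79 in total and 1.57 in polysome-associated mRNA, where the median of all genes was -0.02 and -0.03. Scaling by library totals in place of TMM moved the median of all genes to -0.38 in both RNAs and the share of called genes that were higher from 48.4% to 19.8% in total and from 47.9% to 20.1% in polysome-associated mRNA. Under that scaling 9 of the 10 genes were still called higher in each RNA.

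**Figure D1:**
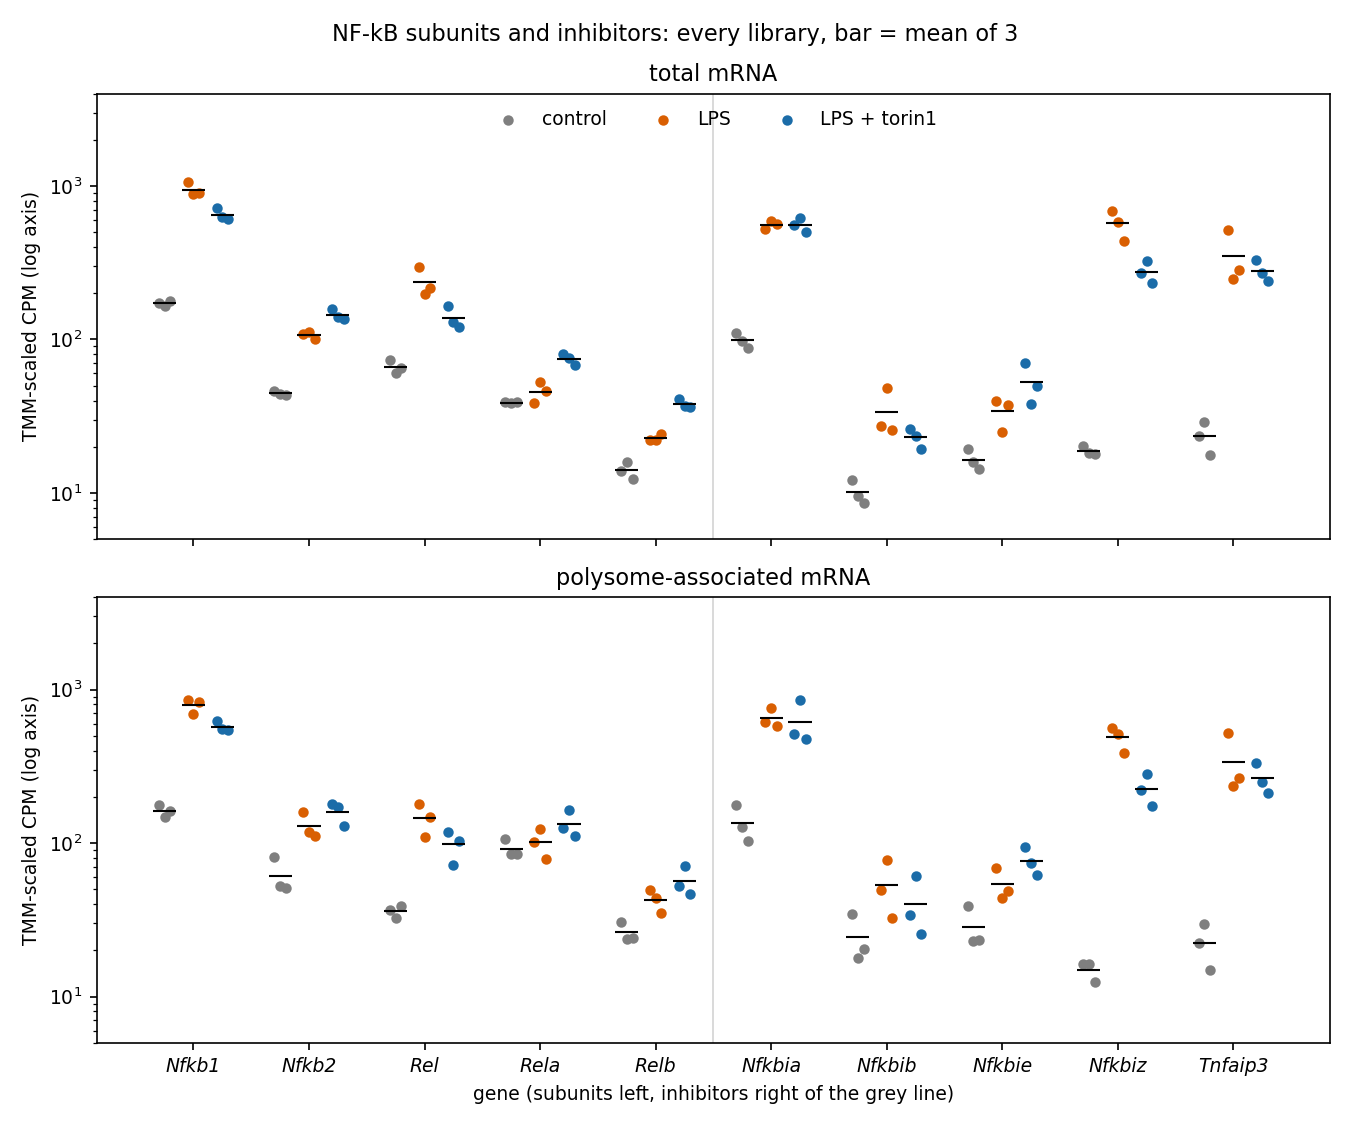
Level of each gene in every library, in TMM-scaled CPM on a log axis, for total mRNA (top) and polysome-associated mRNA (bottom). Points are the 3 libraries of a group and bars their mean. Nfkbiz and Tnfaip3 made the largest steps from control to LPS of the 10 genes, and Rela the smallest.

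Among the subunits, Nfkb1 rose most. This gene encodes the precursor that is processed to the p50 subunit. In total mRNA, Nfkb1 stood at 172, 166 and 177 CPM in the control libraries of experiments 1, 2 and 3, at 1054, 879.5 and 903 CPM after LPS, and at 714, 629 and 611 CPM after LPS+torin1. In polysome-associated mRNA its levels were 177, 148 and 162 CPM in control, 853, 693 and 828 CPM after LPS and 621, 549.7 and 545 CPM after LPS+torin1. The 3 treatments did not overlap in either RNA, with LPS+torin1 between the other treatments. The rise with LPS was 5.50-fold in total mRNA, a log2 fold change of 2.46 ± 0.11 (SE, 3 libraries per group, edgeR adjusted p = 3.66e-07), and 4.87-fold in polysome-associated mRNA, 2.29 ± 0.15 (edgeR adjusted p = 5.53e-06).

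Rel, which encodes the subunit c-Rel, also rose and, like Nfkb1, was lower with torin1 in both RNAs. Its total mRNA stood at 73.5, 60.7 and 64.9 CPM in control, 297, 199 and 216 CPM after LPS and 165, 130.1 and 121 CPM after LPS+torin1. Its polysome-associated mRNA stood at 36.4, 32.4 and 38.8 CPM in control, 179, 109.5 and 147 CPM after LPS and 118.6, 72.5 and 104 CPM after LPS+torin1. Every LPS library lay above every control library, while LPS and LPS+torin1 were apart in total mRNA and overlapped in polysome-associated mRNA. The log2 fold change with LPS was 1.84 ± 0.17 in total mRNA (edgeR adjusted p = 2.07e-05) and 2.02 ± 0.23 in polysome-associated mRNA (edgeR adjusted p = 9.73e-05).

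Nfkb2 and Relb, whose products (p52 from the Nfkb2 precursor, and RelB) pair in the non-canonical branch of the pathway, rose by smaller amounts. Nfkb2 in total mRNA went from 46.5, 44.0 and 43.5 CPM in control to 108, 111.3 and 99.9 CPM after LPS, and stood at 158, 139.9 and 135.4 CPM after LPS+torin1. Relb in total mRNA went from 13.9, 15.98 and 12.3 CPM to 22.2, 22.0 and 24.3 CPM, and stood at 40.9, 36.7 and 36.3 CPM after LPS+torin1. For both genes the 3 treatments were separate in total mRNA, and LPS+torin1 was the highest of them, the reverse of the order seen for Nfkb1 and Rel. The log2 fold change with LPS was 1.25 ± 0.10 for Nfkb2 in total mRNA (edgeR adjusted p = 5.80e-06) and 0.70 ± 0.12 for Relb (edgeR adjusted p = 0.000886). In polysome-associated mRNA Nfkb2 stood at 80.9, 52.2 and 50.9 CPM in control, 159, 118.4 and 110.997 CPM after LPS and 180.0, 173 and 128.8 CPM after LPS+torin1. Relb on polysomes stood at 30.7, 23.8 and 24.02 CPM in control, 49.2, 43.6 and 35.3 CPM after LPS and 52.8, 71.3 and 46.7 CPM after LPS+torin1. On polysomes both genes were above control in every LPS library, and their LPS and LPS+torin1 libraries overlapped. The log2 fold changes with LPS were 1.08 ± 0.23 for Nfkb2 (edgeR adjusted p = 0.00429) and 0.71 ± 0.20 for Relb (edgeR adjusted p = 0.0206).

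Rela, which encodes p65, the main transactivating subunit of canonical NF-kB, showed the smallest response to LPS of the 10 genes. Its total mRNA stood at 39.2, 38.3 and 39.0 CPM in control, 38.3, 52.5 and 46.3 CPM after LPS and 79.8, 75.5 and 68.3 CPM after LPS+torin1. Control and LPS libraries overlapped, and all 3 LPS+torin1 libraries lay above both. The log2 fold change with LPS in total mRNA was 0.24 ± 0.12 (edgeR adjusted p = 0.130), which turned to -0.13 with library-total scaling and was 0.12 (edgeR adjusted p = 0.555) without experiment 2 and 0.23 (edgeR adjusted p = 0.338) without experiment 3. In polysome-associated mRNA Rela stood at 105.9, 85.4 and 84.5 CPM in control, 102, 124.3 and 79.2 CPM after LPS and 124.7, 165 and 111.5 CPM after LPS+torin1. Its log2 fold change with LPS on polysomes, 0.15 ± 0.20, did not pass (edgeR adjusted p = 0.622) and was -0.21 with library-total scaling and -0.07 without experiment 2.

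The largest rises were those of 2 genes of the inhibitor group. Nfkbiz encodes IkB-zeta, an inducible nuclear IkB protein that acts on chromatin as a co-regulator of NF-kB, and Tnfaip3 encodes A20, a ubiquitin-editing enzyme that shuts off signalling upstream of IKK. Nfkbiz total mRNA stood at 20.1, 18.2 and 17.9 CPM in control, 689, 581 and 439 CPM after LPS and 272, 322 and 232 CPM after LPS+torin1. Nfkbiz on polysomes stood at 16.2, 16.3 and 12.4 CPM in control, 566, 514 and 386 CPM after LPS and 220.3, 284 and 176 CPM after LPS+torin1. The 3 treatments did not overlap in either RNA. With LPS, Nfkbiz rose 30.4-fold in total mRNA, a log2 fold change of 4.93 ± 0.20 (edgeR adjusted p = 2.01e-07), and 32.6-fold on polysomes, 5.03 ± 0.25 (edgeR adjusted p = 8.66e-07).

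Tnfaip3 total mRNA stood at 23.6, 29.1 and 17.6 CPM in control, 520.0, 246 and 285 CPM after LPS and 327, 272 and 240.6 CPM after LPS+torin1. On polysomes it stood at 22.2, 29.8 and 14.9 CPM in control, 519, 235 and 264 CPM after LPS and 332, 251 and 211 CPM after LPS+torin1. Both LPS groups were far above control, and they overlapped each other, with the LPS library of experiment 1 the highest of the 9 in each RNA. The rise with LPS was 14.9-fold in total mRNA (log2 fold change 3.90 ± 0.31, edgeR adjusted p = 5.95e-06) and 15.2-fold on polysomes (3.93 ± 0.37, edgeR adjusted p = 3.41e-05).

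Nfkbia encodes IkB-alpha, the classical cytoplasmic inhibitor that is degraded and then resynthesised as an NF-kB target. Its total mRNA stood at 110.6, 97.2 and 87.4 CPM in control, 522, 589 and 564 CPM after LPS and 556, 618 and 498 CPM after LPS+torin1. On polysomes it stood at 178, 127 and 103 CPM in control, 614, 756 and 577 CPM after LPS and 511, 858 and 479.7 CPM after LPS+torin1. LPS and LPS+torin1 overlapped in both RNAs, and all 6 libraries of each RNA were above control. The rise with LPS was 5.67-fold in total mRNA (log2 fold change 2.50 ± 0.13, edgeR adjusted p = 4.73e-07) and 4.77-fold on polysomes (2.25 ± 0.27, edgeR adjusted p = 0.000161).

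Nfkbib and Nfkbie encode IkB-beta and IkB-epsilon, cytoplasmic inhibitors related to IkB-alpha. Nfkbib total mRNA stood at 12.1, 9.58 and 8.63 CPM in control, 27.3, 48.6 and 25.8 CPM after LPS and 26.2, 23.5 and 19.3 CPM after LPS+torin1. Nfkbie total mRNA stood at 19.3, 15.9 and 14.3 CPM in control, 40.0, 24.8 and 37.4 CPM after LPS and 70.3, 37.9 and 49.7 CPM after LPS+torin1. The LPS library of experiment 2 was the highest of its group for Nfkbib and the lowest for Nfkbie, and both genes were above control in every LPS library. With LPS the log2 fold change was 1.75 ± 0.25 for Nfkbib (edgeR adjusted p = 0.000251) and 1.04 ± 0.24 for Nfkbie (edgeR adjusted p = 0.00499). On polysomes Nfkbib stood at 34.8, 17.9 and 20.5 CPM in control, 49.6, 77.7 and 32.4 CPM after LPS and 33.9, 60.8 and 25.4 CPM after LPS+torin1. Nfkbie on polysomes stood at 38.7, 23.1 and 23.5 CPM in control, 68.4, 44.1 and 48.9 CPM after LPS and 93.9, 73.7 and 62.0 CPM after LPS+torin1. Nfkbib varied widely on polysomes, with a coefficient of variation of 37.2% to 46.1% across the 3 groups, and its control and LPS libraries overlapped there. The log2 fold changes with LPS on polysomes were 1.13 ± 0.39 for Nfkbib (edgeR adjusted p = 0.0490) and 0.92 ± 0.25 for Nfkbie (edgeR adjusted p = 0.0173).

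Promoter windows were read for the members that had them. Of the 10 genes, 7 had a RefSeq promoter (GRCm38.p6, 250 bases before to 50 bases after the transcription start), and none was listed for Nfkb1, Relb or Nfkbiz. The 10-base κB consensus, the NF-kB binding motif, was searched on both strands, and overlapping matches were all kept. It was found in 5 of the 7 genes (Nfkb2, Rel, Nfkbia, Nfkbie and Tnfaip3) and was not found in the windows of Rela and of Nfkbib, a gene that rose with LPS. Counted the same way, over all starts of a gene, 6.01% of 8568 genes of the table held it, and counted by window 4.51% of all 32851 promoters did. Shown here are 6 of these windows, 4 with matches and those of the 2 genes without one, each written 5′ to 3′ along its gene with κB matches in capitals. They lie at chr12:55492598-55492897 (Nfkbia, minus strand), chr10:19015361-19015660 (Tnfaip3, minus strand), chr11:23770920-23771219 (Rel, minus strand), chr19:46304487-46304786 (Nfkb2, plus strand), chr19:5637291-5637590 (Rela, plus strand) and chr7:28766595-28766894 (Nfkbib, minus strand).
Nfkbia: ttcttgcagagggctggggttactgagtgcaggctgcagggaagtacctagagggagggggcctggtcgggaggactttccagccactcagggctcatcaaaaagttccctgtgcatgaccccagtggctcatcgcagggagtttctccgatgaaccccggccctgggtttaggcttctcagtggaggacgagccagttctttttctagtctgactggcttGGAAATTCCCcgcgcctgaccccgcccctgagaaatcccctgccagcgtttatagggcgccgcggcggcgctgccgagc
Tnfaip3: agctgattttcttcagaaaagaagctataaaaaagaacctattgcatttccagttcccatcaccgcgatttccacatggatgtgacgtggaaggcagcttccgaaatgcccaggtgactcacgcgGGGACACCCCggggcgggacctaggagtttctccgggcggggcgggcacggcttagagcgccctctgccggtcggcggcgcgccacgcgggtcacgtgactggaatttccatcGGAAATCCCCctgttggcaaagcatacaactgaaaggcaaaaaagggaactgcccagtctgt
Rel: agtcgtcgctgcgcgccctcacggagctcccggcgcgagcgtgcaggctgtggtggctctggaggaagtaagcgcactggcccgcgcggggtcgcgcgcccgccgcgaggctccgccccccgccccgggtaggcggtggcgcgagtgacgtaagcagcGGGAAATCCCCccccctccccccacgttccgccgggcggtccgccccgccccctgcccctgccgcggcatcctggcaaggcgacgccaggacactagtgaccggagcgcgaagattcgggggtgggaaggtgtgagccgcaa
Nfkb2: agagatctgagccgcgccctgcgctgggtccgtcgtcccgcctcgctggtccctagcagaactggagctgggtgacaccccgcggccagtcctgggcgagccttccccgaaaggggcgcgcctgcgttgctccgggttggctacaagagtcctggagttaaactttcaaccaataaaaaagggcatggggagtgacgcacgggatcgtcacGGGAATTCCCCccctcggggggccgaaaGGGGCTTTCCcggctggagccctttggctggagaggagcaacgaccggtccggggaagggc
Rela: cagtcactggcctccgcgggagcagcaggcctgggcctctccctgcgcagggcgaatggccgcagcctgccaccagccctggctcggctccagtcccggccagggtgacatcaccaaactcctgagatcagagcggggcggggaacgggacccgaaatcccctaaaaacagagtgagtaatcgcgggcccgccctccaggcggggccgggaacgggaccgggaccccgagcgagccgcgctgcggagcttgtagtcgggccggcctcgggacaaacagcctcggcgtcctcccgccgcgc
Nfkbib: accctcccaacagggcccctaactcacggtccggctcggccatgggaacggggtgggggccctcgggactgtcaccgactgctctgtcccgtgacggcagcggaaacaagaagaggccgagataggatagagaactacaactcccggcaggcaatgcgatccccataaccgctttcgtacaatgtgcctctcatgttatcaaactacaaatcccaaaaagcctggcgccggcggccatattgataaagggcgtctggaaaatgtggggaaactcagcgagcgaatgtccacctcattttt

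The match in Nfkbia ended 20 bases before the start. Tnfaip3 held a match that ended 116 bases before its start and another that ended 3 bases before it. The capitals of Rel end 82 bases before the start, and those of Nfkb2 end 29 and 2 bases before the start. The longer runs, in Rel and in the first of Nfkb2, are overlapping matches. Nfkbie, not shown, held a match that ended 97 bases before its start. Nfkb2 and Tnfaip3 have other annotated starts, and the first is shown. The Nfkbib window was set on a start at chr7:28766644. The 5′ end of that gene in the gene annotation, chr7:28767512, lies upstream of the window and was not searched. A match is a run of letters and was not tested for binding here.

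With torin1, members of the family moved in both directions in LPS-activated cells. In total mRNA 8 of the 10 genes changed between LPS and LPS+torin1, 4 upward (Nfkb2, Rela, Relb and Nfkbie) and 4 downward (Nfkb1, Rel, Nfkbib and Nfkbiz), where 27.3% of all genes were called higher and 26.4% lower, so movement in both directions was not particular to these genes. In polysome-associated mRNA 6 changed, with Rela, Relb and Nfkbie higher and Nfkb1, Rel and Nfkbiz lower, where 20.3% of all genes were called higher and 18.2% lower. The median log2 fold change of the 10 genes was -0.16 in total and -0.22 in polysome-associated mRNA, and that of all genes was 0.00 in each. With library-total scaling the share of called genes that were higher moved from 50.9% to 60.5% in total mRNA, and the calls of the 10 genes were 4 in each direction in total mRNA and 3 higher on polysomes.

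**Figure D2:**
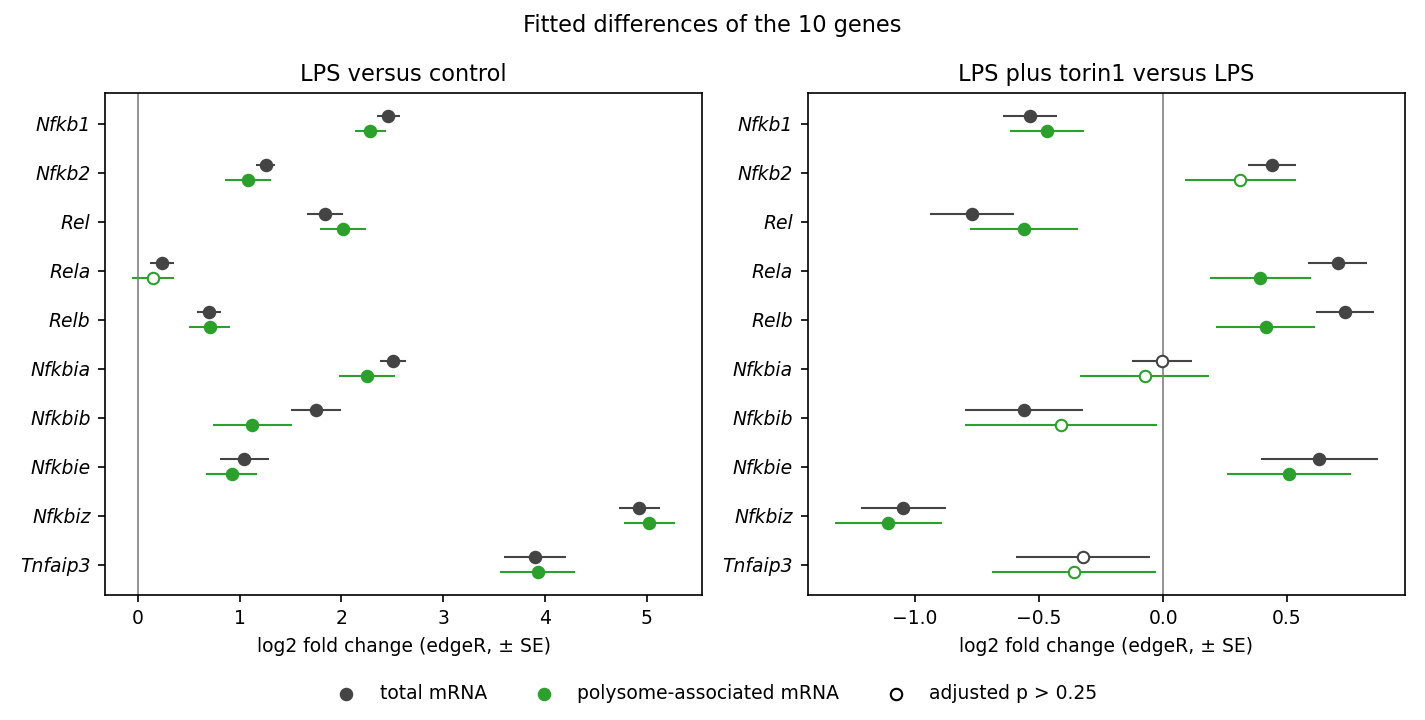
Log2 fold change (edgeR, bars ± SE) of each gene for LPS versus control (left) and LPS+torin1 versus LPS (right), in total mRNA (grey) and polysome-associated mRNA (green), 3 libraries per group. Open points did not pass an adjusted p of 0.25. On the right, Nfkb1, Rel, Nfkbib and Nfkbiz lie left of 0 and Nfkb2, Rela, Relb and Nfkbie right of it, in both RNAs.

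Nfkbiz was the gene most reduced by torin1. Its log2 fold change was -1.05 ± 0.17 in total mRNA (edgeR adjusted p = 0.00180) and -1.11 ± 0.22 on polysomes (edgeR adjusted p = 0.00884), and it was lower in 3 of 3 experiments in each RNA. The per-experiment log2 ratios were -1.34, -0.85 and -0.92 in total mRNA and -1.36, -0.86 and -1.14 on polysomes. Even so, Nfkbiz after LPS+torin1 stayed 14.7-fold above control in total mRNA and 15.1-fold above control on polysomes.

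The canonical subunit genes Nfkb1 and Rel were lower with torin1 in 3 of 3 experiments in both RNAs. In total mRNA the log2 fold change was -0.54 ± 0.11 for Nfkb1 (edgeR adjusted p = 0.00539) and -0.77 ± 0.17 for Rel (edgeR adjusted p = 0.00802). Their polysome values were -0.47 ± 0.15 for Nfkb1 (edgeR adjusted p = 0.0606) and -0.56 ± 0.22 for Rel (edgeR adjusted p = 0.112).

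Rela and Relb were higher with torin1. Rela rose by 0.71 ± 0.12 on the log2 scale in total mRNA (edgeR adjusted p = 0.00219), with per-experiment log2 ratios of 1.06, 0.52 and 0.56, and Relb rose by 0.73 ± 0.12 (edgeR adjusted p = 0.00174). On polysomes both were smaller, at 0.39 ± 0.20 for Rela (edgeR adjusted p = 0.225) and 0.41 ± 0.20 for Relb (edgeR adjusted p = 0.191), and were positive in 3 of 3 experiments. The polysome call of Rela was lost in DESeq2 (adjusted p = 0.251) and in a model of only the treatments compared (edgeR adjusted p = 0.271). Nfkb2 rose by 0.44 ± 0.10 in total mRNA (edgeR adjusted p = 0.00761), while its polysome value of 0.31 ± 0.22 did not pass (edgeR adjusted p = 0.387). Rela was above control after LPS+torin1, by 0.94 ± 0.12 in total mRNA (edgeR adjusted p = 0.000121) and 0.54 ± 0.20 on polysomes (edgeR adjusted p = 0.0615), the latter 0.25 (edgeR adjusted p = 0.326) with library-total scaling.

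The cytoplasmic IkB genes did not move as a group with torin1. Nfkbie was higher, by 0.63 ± 0.24 in total mRNA (edgeR adjusted p = 0.0691) and 0.51 ± 0.25 on polysomes (edgeR adjusted p = 0.200). Nfkbib was lower in total mRNA, at -0.56 ± 0.24 (edgeR adjusted p = 0.104), a value that rests on experiment 2, since without it the log2 fold change was -0.22 (edgeR adjusted p = 0.487). Nfkbia was at -0.0034 ± 0.12 in total mRNA (edgeR adjusted p = 0.987) and -0.07 ± 0.26 on polysomes (edgeR adjusted p = 0.878). Tnfaip3 did not pass in either RNA, at -0.32 ± 0.27 in total mRNA (edgeR adjusted p = 0.403) and -0.36 ± 0.33 on polysomes (edgeR adjusted p = 0.507), and in experiment 2 it was higher with torin1 in both RNAs. Nfkbib on polysomes was at -0.41 ± 0.39 (edgeR adjusted p = 0.519).

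Of the 6 polysome calls with torin1, 2 were left without experiment 1, 4 without experiment 2 and 1 without experiment 3, in fits with 2 libraries per group. The log2 fold changes of the lost calls kept their sign, at -0.48 and -0.39 for Nfkb1, -0.54 and -0.58 for Rel, 0.44 and 0.37 for Rela and 0.58 and 0.43 for Relb without experiments 1 and 3 in turn. Relb was at 0.23 without experiment 2, and Nfkbie at 0.41 without experiment 2 and 0.59 without experiment 3. At an adjusted p of at most 0.05, Nfkbiz was the call left. Over all genes the number called fell from 4322 to 1782 without experiment 1 and to 1187 without experiment 3.

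LPS+torin1 cells compared with control showed all 10 genes higher in both RNAs, where 33.1% of all genes were called higher in total and 28.5% in polysome-associated mRNA. The median log2 fold change of the 10 genes was 1.68 in total and 1.44 in polysome-associated mRNA. With library-total scaling the share of called genes that were higher moved from 49.6% to 26.4% in total mRNA and from 48.9% to 27.0% on polysomes, and 8 of 10 were called on polysomes, Rela and Nfkbib no longer passing, and without experiment 2 Nfkbib on polysomes was at 0.10 (edgeR adjusted p = 0.795). This comparison shares its libraries with the others, so its values are not a separate line of evidence. In total mRNA Nfkb1 was 3.79-fold above control with LPS+torin1 and 5.50-fold with LPS, and Rel 2.09-fold and 3.57-fold. Nfkb2 was 3.24-fold above control with LPS+torin1 and 2.39-fold with LPS, and Relb 2.70-fold and 1.62-fold.

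Because genes moved by different amounts, the make-up of the NF-kB subunit transcripts differed between treatments. Levels were divided by the length of each gene's merged exons (12061 bases for Nfkb1, 4584 for Nfkb2, 7466 for Rel, 3072 for Rela and 3885 for Relb) and expressed as a share of the 5 subunit genes in each library, a quantity that library scaling does not change. Merged exons take in every annotated exon, so the transcripts in use can be shorter and the level per kb too low. Every comparison between genes per kb depends on these lengths, and other lengths were not tested. In total mRNA, Nfkb1 made up 29.01% ± 1.02 (SD, n = 3) of the subunit transcripts per kb in control, 50.8% ± 0.979 after LPS and 39.1% ± 0.406 after LPS+torin1. Rela made up 25.7% ± 0.465 in control, 9.77% ± 2.19 after LPS and 17.6% ± 0.667 after LPS+torin1. The ranges of the 3 treatments did not overlap for either gene. In polysome-associated mRNA Rela was the leading subunit per kb in control cells, at 43.9% ± 0.906, and Nfkb1 after LPS, at 41.8% ± 4.26. Before division by length, Nfkb1 was above Rela on polysomes in control too, with means of 162 and 91.9 CPM. Nfkb1 stood at 19.8% ± 1.35 of the polysome-associated subunit transcripts in control, and Rela at 21.2% ± 5.15 after LPS and 28.2% ± 3.83 after LPS+torin1, these last 2 groups overlapping. With 3 libraries per group an exact two-sided permutation test cannot go below p = 0.10, so the shares are given with no test.

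**Figure D3:**
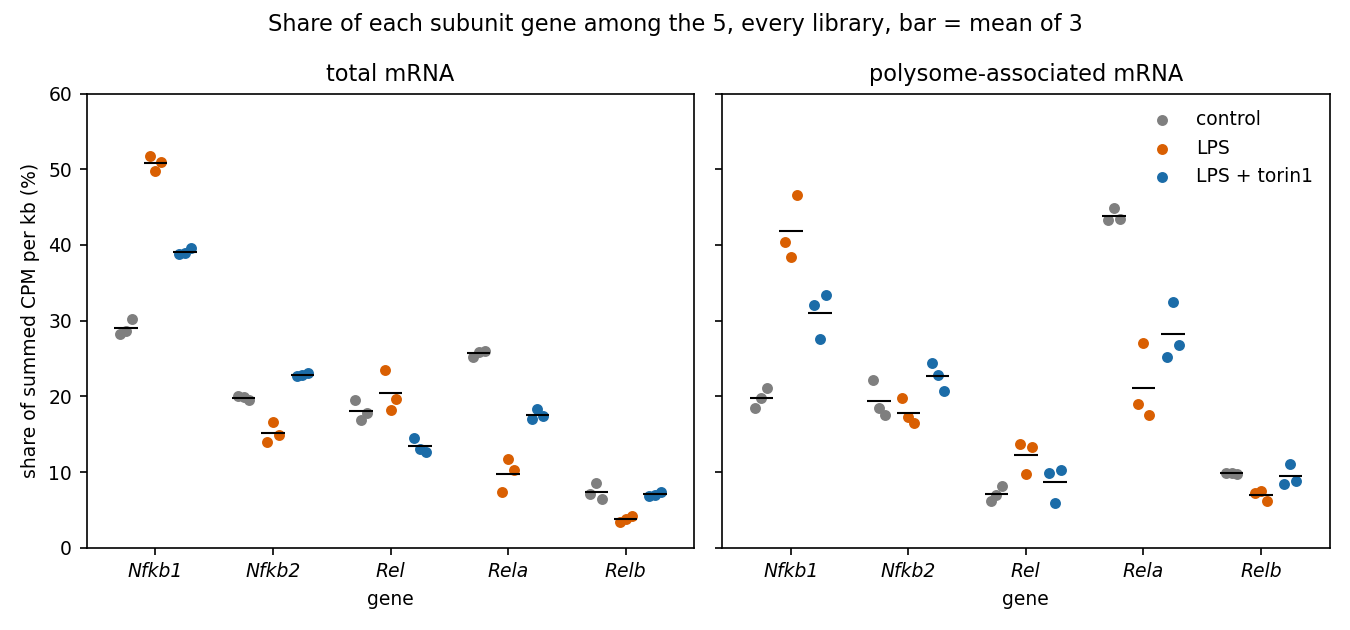
Share of each subunit gene in the summed CPM per kb of merged exons of the 5 subunit genes, in percent, for total mRNA (left) and polysome-associated mRNA (right). Points are the 3 libraries of a group and bars their mean. Nfkb1 takes the top share after LPS in both RNAs (50.8% and 41.8%), and Rela the top share on polysomes in control (43.9%).

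Ratios between gene pairs within a library are likewise unchanged by library scaling. The Nfkb1 to Nfkb2 ratio per kb in total mRNA was 1.41, 1.43 and 1.55 in control, 3.70, 3.00 and 3.43 after LPS, and 1.72, 1.71 and 1.71 after LPS+torin1. The Rel to Rela ratio in total mRNA was 0.773, 0.652 and 0.685 in control, 3.19, 1.56 and 1.92 after LPS, and 0.852, 0.709 and 0.731 after LPS+torin1. Per kb of merged exons, Rel stood above Rela in total mRNA in the LPS libraries alone of the 3 treatments. The control and LPS+torin1 ranges of this ratio overlapped. Before division by length, mean total mRNA of Rel was above that of Rela in every treatment. Rel stood at 66.4 CPM in control, 237 after LPS and 139 after LPS+torin1, and Rela at 38.8, 45.7 and 74.5 CPM. On polysomes the Rel to Rela ratio per kb stayed below 1 in all 9 libraries, at 0.141, 0.156 and 0.189 in control, 0.722, 0.363 and 0.763 after LPS and 0.391, 0.181 and 0.383 after LPS+torin1. Before division by length, Rel was above Rela on polysomes after LPS in experiments 1 and 3 (179 and 147 against 102 and 79.2 CPM). In experiment 2 it was below, at 109.5 against 124.3 CPM.

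Among the inhibitors, Nfkbia had the highest level per kb of merged exons in every group. It stood at 61.1 ± 7.23 CPM per kb (SD, n = 3) in control, 347 ± 21.1 after LPS and 346 ± 37.4 after LPS+torin1 in total mRNA. Nfkbiz moved from 3.73 ± 0.244 CPM per kb, where its libraries overlapped those of Relb, Nfkbib and Tnfaip3, to 113.4 ± 24.96 after LPS, next below Nfkbia and above Nfkb1, with no overlap with either. After LPS+torin1 it was at 54.9 ± 8.96 CPM per kb and overlapped Nfkb1. As a share of the 5 inhibitor genes per kb, Nfkbiz made up 4.79% ± 0.319 in control, 21.1% ± 3.56 after LPS and 11.7% ± 0.790 after LPS+torin1, while Nfkbia made up 78.2% ± 0.483, 64.9% ± 6.20 and 74.0% ± 1.84. In control cells the order of all 10 genes per kb in total mRNA was Nfkbia, Nfkb1, Rela, Nfkb2, Rel, Nfkbie, Nfkbib, Nfkbiz, Relb and Tnfaip3. The neighbours Nfkb2 and Rel, and each pair of neighbours from Nfkbie to Tnfaip3, overlapped.

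The order per kb after LPS in total mRNA was Nfkbia, Nfkbiz, Nfkb1, Tnfaip3, Rel, Nfkb2, Nfkbib, Rela, Nfkbie and Relb, and the overlapping neighbours were Tnfaip3 with Rel, Nfkb2 with Nfkbib, Nfkbib with Rela, and Rela with Nfkbie. Tnfaip3 moved from the last place at 3.24 ± 0.793 CPM per kb to the fourth at 48.5 ± 20.5, and Rela from the third at 12.6 ± 0.153 to the eighth at 14.9 ± 2.32. After LPS+torin1 the order was Nfkbia, Nfkbiz, Nfkb1, Tnfaip3, Nfkb2, Rela, Rel, Nfkbie, Nfkbib and Relb, in which Nfkb2 and Rela stood above Rel. Here the overlapping neighbours were Nfkbiz with Nfkb1, Tnfaip3 with Nfkb2, Rel with Nfkbie, and Nfkbib with Relb. The lowest Rela library, at 22.22 CPM per kb, lay just above the highest Rel library, at 22.15.

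How much of each transcript sat on heavy polysomes differed widely between the 10 genes, with control means of the log2 ratio from -0.88 for Rel to 1.24 for Rela. The log2 ratio of polysome-associated to total CPM in the same lysate was positive for Rela, with control lysates at 1.43, 1.16 and 1.12, LPS lysates at 1.42, 1.23 and 0.79 and LPS+torin1 lysates at 0.64, 1.08 and 0.70. It was negative for Rel, with control lysates at -1.02, -0.90 and -0.74, LPS lysates at -0.72, -0.87 and -0.54 and LPS+torin1 lysates at -0.49, -0.89 and -0.24. In control cells Rela lay on average at percentile 96.7 of all genes for this ratio and Rel at percentile 8.93. Relb, Nfkbie and Nfkbib also had mean ratios above 0.5 in every treatment, and Nfkbiz, Nfkb1 and Tnfaip3 had negative means in every treatment. Nfkbib went from 1.23 ± 0.31 (SD, n = 3) in control to 0.62 ± 0.27 after LPS and 0.69 ± 0.55 after LPS+torin1. TMM sets the typical gene to the same level in every library, so a ratio of 0 stands for the typical gene and not for equal amounts of RNA.

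**Figure D4:**
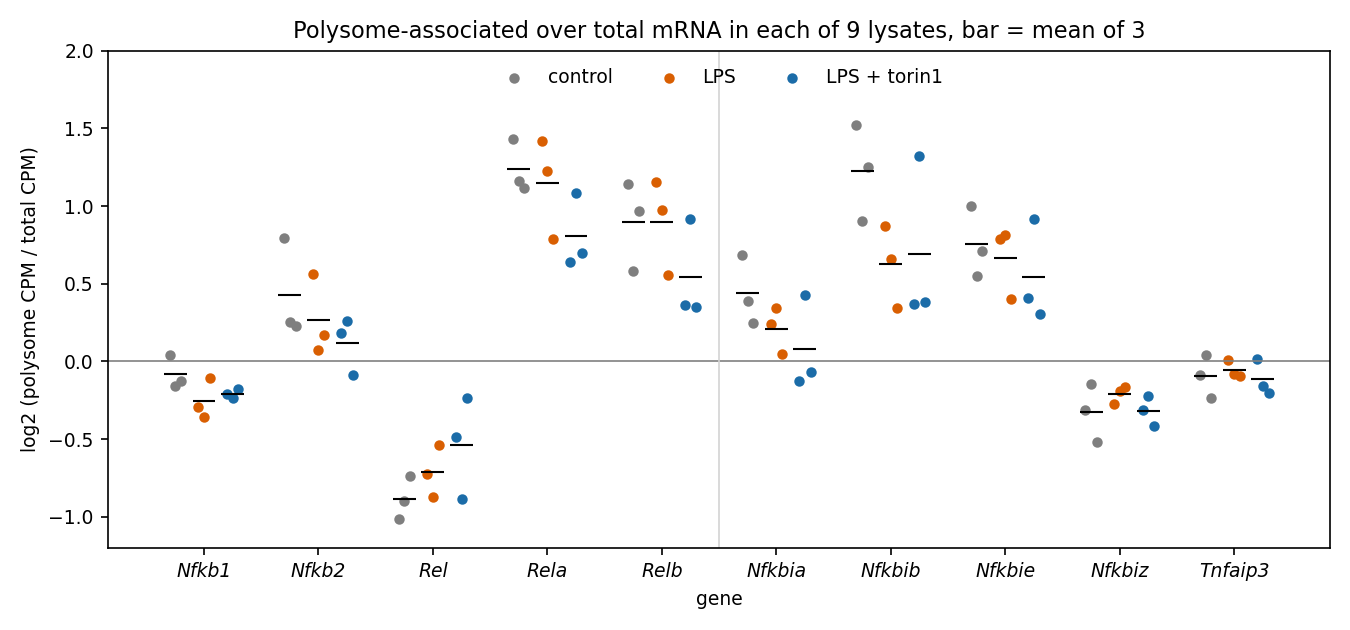
Log2 ratio of polysome-associated to total CPM for each gene in each of the 9 lysates, coloured by treatment, with bars at the mean of 3. Rela lies at 0.64 or above in all 9 lysates and Rel at -0.24 or below in all 9, while the 3 treatments overlap for most genes.

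Translation efficiency was compared as the difference between the polysome and total changes, in a model over all 18 libraries. That main model did not pair the polysome and total libraries of a lysate. None of the 10 genes passed in any of the 3 comparisons, and 0% of all genes passed LPS versus control, 0% passed LPS+torin1 versus LPS and 0% passed LPS+torin1 versus control in edgeR. The study, using anota2seq, reported changed translation efficiency for a subset of mRNAs with LPS, largely reversed by torin1. The 0% belongs to the edgeR model, which is not the method of the study. At an unadjusted p under 0.05, edgeR gave 44, 110 and 145 of the 11243 genes in these comparisons and none of the 10. DESeq2 called 1, 13 and 1 genes, again none of the 10. An edgeR model with a term for each lysate, which pairs its polysome and total libraries, called 0, 25 and 3 genes and none of the 10. With the lysate term, edgeR's unadjusted p was under 0.05 for 164, 303 and 820 genes, among them 1, 0 and 1 of the 10 genes. These were Nfkbib with LPS (edgeR adjusted p = 0.9998) and Rela between LPS+torin1 and control (edgeR adjusted p = 0.659). The fitted log2 values of the 10 genes in the main model ran from -0.63 ± 0.49 (SE) for Nfkbib to 0.18 ± 0.30 for Rel with LPS, from -0.35 ± 0.23 for Relb to 0.19 ± 0.30 for Rel with torin1, and from -0.50 ± 0.50 for Nfkbib to 0.37 ± 0.30 for Rel between LPS+torin1 and control. With the lysate term these SEs were smaller, with LPS at 0.25 for Nfkbib and 0.17 for Rel.

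Other components of the pathway were listed by role, and 50 of 51 listed genes were counted. With LPS, 28 of the 50 rose and 8 fell in total mRNA, and 27 rose and 6 fell on polysomes, where 32.2% and 26.4% of all genes were called higher and 34.3% and 28.7% lower. With torin1, 11 were higher and 15 lower in total mRNA and 8 higher and 8 lower on polysomes, where 27.3% and 20.3% of all genes were called higher and 26.4% and 18.2% lower, so the torin1 counts lie near those of all genes. The median log2 fold change of the 50 with LPS was 0.25 in total and 0.32 in polysome-associated mRNA, below that of the 10 genes.

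Of the 3 other nuclear or atypical IkB genes, all rose in total mRNA with LPS and 2 on polysomes. Bcl3, a nuclear IkB protein that binds p50 and p52 dimers, rose by 2.83 ± 0.34 on the log2 scale on polysomes (edgeR adjusted p = 0.000145), and Nfkbid, another nuclear IkB gene, rose by 1.84 ± 0.29 (edgeR adjusted p = 0.000771). Both were lower with torin1, like Nfkbiz, with values of -1.08 ± 0.32 for Bcl3 (edgeR adjusted p = 0.0476) and -0.86 ± 0.28 for Nfkbid (edgeR adjusted p = 0.0655) on polysomes.

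In the IKK complex and its kinases, 6 of 8 genes rose and 1 fell on polysomes with LPS, with Ikbke, an inducible IKK-related kinase, at 2.43 ± 0.19 and Map3k8, the kinase Tpl2 that is held by the Nfkb1 precursor, at 2.16 ± 0.21. With torin1, Map3k8 was lower on polysomes, at -0.59 ± 0.20 (edgeR adjusted p = 0.0773), and Ikbke was at 0.07 ± 0.18 (edgeR adjusted p = 0.814). Of 6 genes for partners of A20, 5 rose, led by Tnip1, which encodes a ubiquitin-binding partner of A20, at 2.17 ± 0.18, and Rnf11 at 0.61 ± 0.15. Among the 10 TAB, TRAF and IAP adaptors 5 rose and 1 fell, led by Traf1 at 2.55 ± 0.24 and Birc3 at 1.16 ± 0.25, both known NF-kB target genes.

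Malt1, a paracaspase that cleaves A20, rose by 2.87 ± 0.26 on polysomes with LPS and was higher with LPS+torin1 than with LPS, by 1.37 ± 0.25 (edgeR adjusted p = 0.00633). The remaining lists moved less. Of 5 counted genes of the SCF ligase that marks IkB for destruction 3 rose and 1 fell on polysomes, led by Fbxw11 at 0.45 ± 0.15 and Rbx1 at 0.38 ± 0.21, of 6 linear ubiquitin and deubiquitinase genes 3 rose, led by Rnf31 at 0.61 ± 0.22 and Otud7b at 0.33 ± 0.13, and of 8 other inhibitors of NF-kB 1 rose (Ppp6c, 0.44 ± 0.15) and 1 fell (Pias3, -0.62 ± 0.24).

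The 10 genes lie on 8 chromosomes of GRCm38, Nfkb1 at chr3:135584655-135691547, Nfkb2 at chr19:46304320-46312385, Rel at chr11:23736847-23770970, Rela at chr19:5637483-5648130, Relb at chr7:19606217-19629438, Nfkbia at chr12:55489410-55492647, Nfkbib at chr7:28758251-28767512, Nfkbie at chr17:45555703-45563169, Nfkbiz at chr16:55811375-55838899 and Tnfaip3 at chr10:19000910-19015657. Nfkb2 overlaps Psd and Nfkbib overlaps Sirt2 and Ccer2 on the opposite strand, and Nfkb1 overlaps the gene model Gm43430 on its own strand. How the strand setting shared reads between these neighbours was not tested.

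For each of the 10 genes, the genes outside the family whose log2 CPM was most alike over the 18 libraries were Vegfc (Pearson r = 0.993) and Ptgs2 (0.990) for Nfkb1, Arap1 (0.973) and Rab20 (0.972) for Nfkb2, Tet2 (0.988) and Rsbn1 (0.978) for Rel, Pnpla2 (0.975) and Vrk3 (0.973) for Rela, and Psmb6 (0.969) and Stk25 (0.968) for Relb. Among the inhibitors they were Marcksl1 (0.987) and Tnip1 (0.985) for Nfkbia, Mafk (0.953) and Cdk2ap2 (0.950) for Nfkbib, St3gal3 (0.959) and Pik3r5 (0.953) for Nfkbie, Ppp4r1 (0.989) and Trim25 (0.985) for Nfkbiz, and Dusp16 (0.993) and Flrt3 (0.985) for Tnfaip3. These libraries fall into 3 treatments and 2 RNAs and share lysates, so the values describe likeness of pattern and carry no p.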

How the data were processed

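The authors made stranded libraries from ribosomal RNA-depleted total and polysome-associated RNA, ran the nextflow RNAseq pipeline (version 1.3, default settings), took Hisat2 alignments to GRCm38, counted per gene by featureCounts, and deposited raw counts of protein-coding genes with at least 1 count in every library. Groups and experiment numbers came from the sample labels. The 10 genes and the pathway lists were chosen with earlier results of these data known.

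Differences in each RNA were tested with edgeR 4.0.16 in R 4.3.3 (quasi-likelihood test, TMM, 9 libraries of an RNA type and 3 treatments in one model, Benjamini-Hochberg adjustment over 11243 genes, adjusted p of at most 0.25), after the methods of the study. Translation efficiency was the RNA type by treatment interaction over 18 libraries, with a change of at least 1.2-fold also required. The study used anota2seq, in place of which the interaction and an analysis of partial variance in limma 3.58.1 were used. CPM values use TMM factors within an RNA type, and polysome-to-total ratios and log2 CPM use TMM factors over all 18 libraries with a pseudocount of 0.5. Libraries within groups differed by more than counting noise (lowest chi-square per degree of freedom 26.3).

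Same-numbered libraries come from the same independent experiment, and total and polysome-associated RNA from the same lysate. Deviations from the group means of same-numbered libraries correlated in every pair in total mRNA (r = 0.149 to 0.426) and in every lysate (0.391 to 0.650), and not in every pair on polysomes (-0.092 to 0.740). The model was tested on simulated data in which 200 of 11243 genes were changed by 2 on the log2 scale: for LPS versus control it recovered 98% in total mRNA, 98% on polysomes and 93% in translation efficiency, with 60 of 256, 57 of 253 and 53 of 239 calls on unchanged genes. The simulated libraries were independent, with no effect of experiment or lysate. Smaller changes were not simulated, so the 93% does not tell how many of those in translation efficiency would be found.

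From the lists, the 2 called genes with the largest polysome change to LPS were named per list (1 is not reported here), and for each of the 10 genes the 2 others with the highest Pearson r. Promoter windows came from RefSeq (GRCm38.p6), gene positions from GENCODE on GRCm38. Alternatives were DESeq2 1.42.0 size factors and test, at least 10 counts in every library, each experiment left out, the experiment as a block, an adjusted p of at most 0.05 and a model of only the treatments compared. For translation efficiency the block was a term for each lysate in place of the experiment. Library-total scaling was added after seeing the data.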

Additional observations from a re-analysis of the deposited data

How the results depend on the processing

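Of 600 alternative values for the changes of the 10 genes in total and polysome-associated mRNA, 562 kept their direction and their side of the threshold, 29 no longer passed, 1 newly passed and 8 changed sign. With library-total scaling the LPS change of Rela was -0.13 in total and -0.21 in polysome-associated mRNA, and the torin1 change of Nfkbia in total mRNA was 0.063. With at least 10 counts in every library that Nfkbia value was 0.00040. Leaving out 1 experiment gave -0.050 to 0.080 for Nfkbia with torin1 in total mRNA, -0.26 to 0.013 for Nfkbia with torin1 on polysomes and -0.072 to 0.26 for Rela with LPS on polysomes. The 6 genes called with torin1 on polysomes became 1 to 4 with an experiment left out and 1 at an adjusted p of at most 0.05, and 5 in DESeq2 and in the model of only the treatments compared, each without Rela. With the experiment as a replicate block, that count was 7, since Nfkb2 on polysomes passed with torin1 (0.32, edgeR adjusted p = 0.115). The block changed no other call of the 10 genes at an adjusted p of at most 0.25. In translation efficiency none of the 10 genes passed under any alternative. Its Relb value with LPS was -0.0042 with DESeq2 size factors, -0.0039 in DESeq2, -0.00030 with the lysate term and -0.19 to 0.20 with an experiment left out. In the analysis of partial variance, a differently defined quantity, Relb was 0.75 between LPS+torin1 and LPS and 1.79 between LPS+torin1 and control. The Nfkbib value with torin1 ran from -0.26 to 0.45 with an experiment left out. Of 210 values for the other translation efficiency results, 21 changed sign. The causes were not tested.

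Over all genes, leaving out experiment 3 gave 1187 calls with torin1 on polysomes in place of 4322, 3959 in total mRNA in place of 6038, and 4156 for LPS+torin1 versus control on polysomes in place of 6546. Leaving out experiment 1 gave 1782 calls with torin1 and 3901 with LPS on polysomes, the latter in place of 6191. An adjusted p of at most 0.05 left 3279 calls with torin1 in total mRNA, 1557 with torin1, 3654 with LPS and 3950 for LPS+torin1 versus control on polysomes. In translation efficiency, where edgeR called 0, the analysis of partial variance called 9, 20 and 6 genes for LPS, torin1 and LPS+torin1 versus control, DESeq2 1, 13 and 1, the lysate term 0, 25 and 3, and leaving out experiment 2 gave 430 for LPS+torin1 versus control. With 3 experiments, small differences on polysomes, where the libraries spread more, can be missed. How small a difference could be detected was not tested.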

Other observations

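The summed level of the 5 inhibitor genes per kb, divided by that of the 5 subunit genes in the same library, is a quantity that library scaling does not touch. In total mRNA it was 1.74, 1.62 and 1.42 in control, 3.31, 3.73 and 3.42 after LPS and 3.15, 3.80 and 3.23 after LPS+torin1. On polysomes it was 1.83, 1.65 and 1.35 in control, 3.49, 4.38 and 3.41 after LPS and 2.82, 4.10 and 2.91 after LPS+torin1. Per kb of merged exons, the inhibitor sum stood above the subunit sum in all 18 libraries, a size that depends on the exon lengths used. Every LPS and LPS+torin1 library lay above every control library. The LPS and LPS+torin1 libraries overlapped in both RNAs, although Nfkbiz, Nfkb1 and Rel were lower and Relb, Rela and Nfkbie higher with torin1. Nfkbia makes up most of the inhibitor sum, and its level did not pass between LPS and LPS+torin1 in either RNA. With 3 libraries per group an exact two-sided permutation test cannot go below p = 0.10, and the sum was chosen after the values of its members were seen.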
